A study of Bos taurus with 14 samples.

Results

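The cytosolic heat shock protein genes examined here are HSPA8, HSPA1A, DNAJB1, HSPH1, HSP90AA1, HSP90AB1 and HSPB1. The 7 genes were chosen with earlier results of these data known. Every probe set of the array whose only annotated gene symbol is one of these 7 was then taken, whatever its values. This gave 18 of the 24016 probe sets tested and all 7 genes. HSPA1A had 6 probe sets, HSPH1 had 4, DNAJB1, HSP90AA1 and HSPB1 had 2 each, and HSPA8 and HSP90AB1 had 1 each. Each gene is described first by its brightest probe set on average, called its main probe set.

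The tissue was mammary gland biopsied from Holstein cows that had been dried off about 60 d before the predicted calving date. Short days (SD) had 8 h of light and 16 h of dark, and long days (LD) had 16 h of light and 8 h of dark. The 4 groups were SD at day -9 before calving (4 arrays), LD at day -9 (4 arrays), SD at day -24 (3 arrays) and LD at day -24 (3 arrays). A biopsy mixes epithelium, stroma, fat and blood cells, so fewer cells of a type and less RNA per cell cannot be told apart, and the labels say neither whether each array is a different cow nor whether a cow gave both biopsies. All p-values therefore measure only the spread between these arrays.

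Heat shock proteins of the cytosol are chaperones: they hold new or damaged proteins until these fold or are destroyed. HSP70 proteins work in a cycle in which a J-domain partner delivers the client and starts the breakdown of ATP, and a nucleotide exchange factor lets the client go. HSP90 takes over clients such as steroid hormone receptors and kinases, and small heat shock proteins keep unfolded proteins from clumping. Some members, such as HSPA8 and HSP90AB1, are made at all times, and others, such as HSPA1A, are induced through heat shock factor 1 under heat, oxidative or other stress. In dairy cattle these genes are best known from work on heat stress.

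None of the 18 probe sets differed between photoperiods or between days past an adjusted p of 0.05 (limma, Benjamini-Hochberg over 24016 probe sets), in any of 7 comparisons. The background was the same, with 0 (0%) of all probe sets called in each comparison, so the count says nothing particular to these genes. For 6 of the 7 genes the 95% intervals set narrow limits: over the 4 comparisons of group pairs, no interval of the main probe set reached beyond a 1.58-fold difference (HSPH1), and that of HSP90AB1 stayed within 1.29-fold. The interval of the main HSPA1A probe set reached 2.12-fold. Among the other probe sets the limits were wider, up to 2.64-fold in HSPA1A and 2.66-fold in the dim HSPH1 probe set Bt.19629.2.S1_at.

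**Figure D1:**
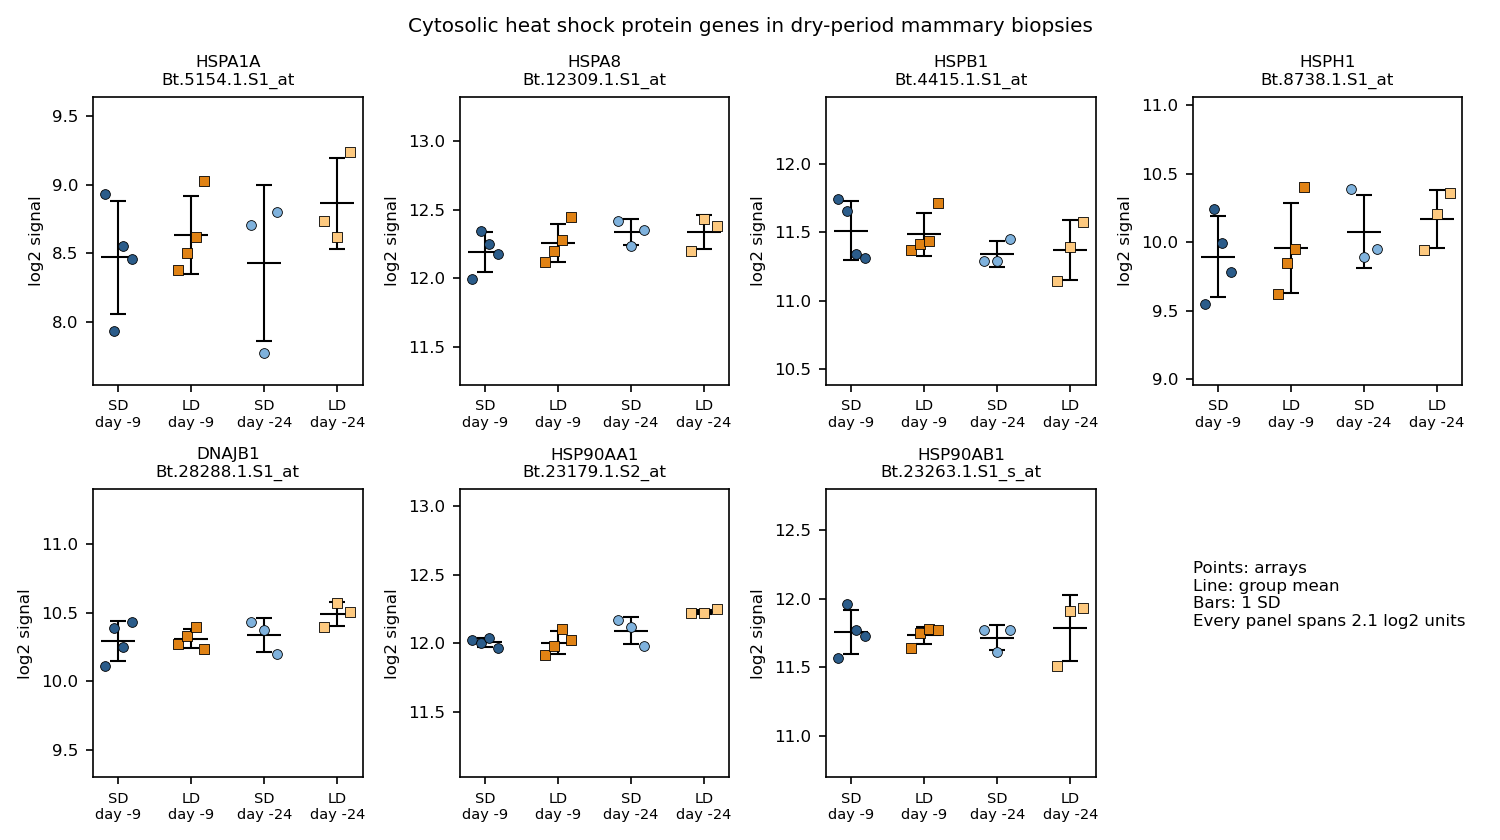
Log2 signal (vertical axis) of the main probe set of each gene, with a point per array, a line at the group mean and bars of 1 SD. SD and LD arrays overlap at each day in all 7 panels except HSP90AA1 at day -24, and the points of HSPA1A spread most widely, over 1.47 log2 units.

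Libraries that stand apart touch these genes. LD day -24 replicate 1 had the most extreme score on the first principal component of all probe sets (25.2% of the variance). On the second (17.6%) the extreme array was SD day -24 replicate 3, and on the third (13.0%) it was SD day -9 replicate 1. Within its group of 3, LD day -24 replicate 1 was the lowest array in 16 of the 18 probe sets, against 46.2% of all probe sets. Within its group of 4, LD day -9 replicate 1 was lowest in 13 of 18, against 23.7% of all. Each difference of a main probe set was refitted without each array, and no such refit called a member. The 280 probe sets that were lower by at least 0.7 in both LD day -9 replicate 4 and SD day -24 replicate 3 than in every other array held 0 of the 18. Of the epithelial markers, CDH1, a junction protein of epithelia, lay between 11.51 and 11.98, and the luminal keratin gene KRT18 between 7.52 and 9.31. The mean of 12 luminal markers lay between 9.02 and 9.78 over the arrays. Of these 12, 1 had every group mean under the lower quartile of every array. The adipocyte hormone gene ADIPOQ lay between 2.98 and 4.03, but it does not stand for its list. The mean of 9 adipocyte markers lay between 6.22 and 7.29, beside array medians between 6.43 and 6.61.

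HSPA8 encodes the constitutive HSP70 of the cytosol. Its log2 signal was 11.99, 12.34, 12.25 and 12.18 in SD at day -9 and 12.12, 12.20, 12.28 and 12.44 in LD at day -9. The day -24 values were 12.42, 12.24 and 12.35 in SD and 12.20, 12.43 and 12.38 in LD. The groups overlapped in every comparison, and the 14 arrays spanned a 1.37-fold range. The difference of SD from LD was 0.00 at day -24 (SE 0.13, 95% interval -0.28 to 0.28) and -0.07 at day -9 (SE 0.11, -0.31 to 0.17). Between days it was -0.15 in SD (-0.40 to 0.11) and -0.08 in LD (-0.34 to 0.18). HSPA8 was bright, above the upper quartile of every array. Its SD within groups, 0.13, was lower than that of all but 9.54% of probe sets.

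HSPA1A encodes the stress-inducible HSP70. Mammals carry near-identical copies of this gene, and the array annotation places 2 of its 6 probe sets under NCBI Gene 281825 and 4 under NCBI Gene 282254. RefSeq's current cattle table (ARS-UCD2.0) holds HSPA1A under the second number alone and lists HSPA1B among its synonyms. Which copy each probe set reads, and whether they share signal, is therefore uncertain.

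The main HSPA1A probe set, Bt.5154.1.S1_at, belongs to the first number. It was at 8.94, 7.94, 8.55 and 8.46 in SD at day -9 and at 8.38, 8.50, 8.62 and 9.03 in LD at day -9. The day -24 arrays were at 8.70, 7.77 and 8.81 in SD and at 8.74, 8.62 and 9.24 in LD. In each SD group 1 array, replicate 2, was well below the others. The difference of SD from LD at day -24 was -0.44 (SE 0.30, 95% interval -1.08 to 0.21, limma adjusted p = 0.9997). With 1 array left out it was lowest at -0.63, where SD day -24 replicate 3 was the array dropped, and highest at -0.11, where replicate 2 of the same group was. Dropping LD day -24 replicate 3 gave -0.25. At day -9 it was -0.16 (-0.72 to 0.40). That value was -0.32 when SD day -9 lacked replicate 1 and 0.02 when it lacked replicate 2, and -0.03 when LD day -9 lacked replicate 4.

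The other HSPA1A probe sets gave other directions at day -24. The probe set Bt.5154.1.S1_s_at, of the same number, differed by -0.51 between SD and LD. The 4 of the second number differed by 0.66 (Bt.23161.2.A1_at), 0.49 (Bt.7035.1.S1_at), 0.29 (Bt.7035.2.S1_at) and 0.07 (Bt.23528.1.S1_at). The gene thus had 2 negative and 4 positive estimates for 1 comparison, and the mean of its 6 probe sets differed by 0.09. At day -9 the estimates lay between -0.39 and 0.27, with 5 of 6 negative. The interval of each of the 6 took in 0 in all 7 comparisons.

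Some HSPA1A probe sets varied together across the 14 arrays and others did not. Both Bt.5154 probe sets correlated at r = 0.90 (rho = 0.82), or 0.78 without the 2 arrays farthest from the median. Both Bt.7035 probe sets correlated at r = 0.91 (rho = 0.87), or 0.75 without 2 such arrays. Bt.23528.1.S1_at correlated with Bt.7035.1.S1_at at r = 0.76 (rho = 0.55, and 0.72 without 2 arrays) and with Bt.7035.2.S1_at at r = 0.73 (rho = 0.53, and 0.58). Bt.23161.2.A1_at correlated with Bt.5154.1.S1_at at r = -0.01 (rho = 0.16), but at 0.75 without the replicate 2 arrays of both SD groups. Between Bt.5154.1.S1_at and Bt.7035.1.S1_at r was -0.07 (rho = 0.19, and -0.05 without 2 arrays). SD day -9 replicate 1 shows the split: it was the lowest of the 14 arrays for Bt.7035.1.S1_at, at 7.11, and the highest of its group for Bt.5154.1.S1_at, at 8.94. These correlations describe arrays that also share RNA quality and cell makeup, and carry no test.

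**Figure D2:**
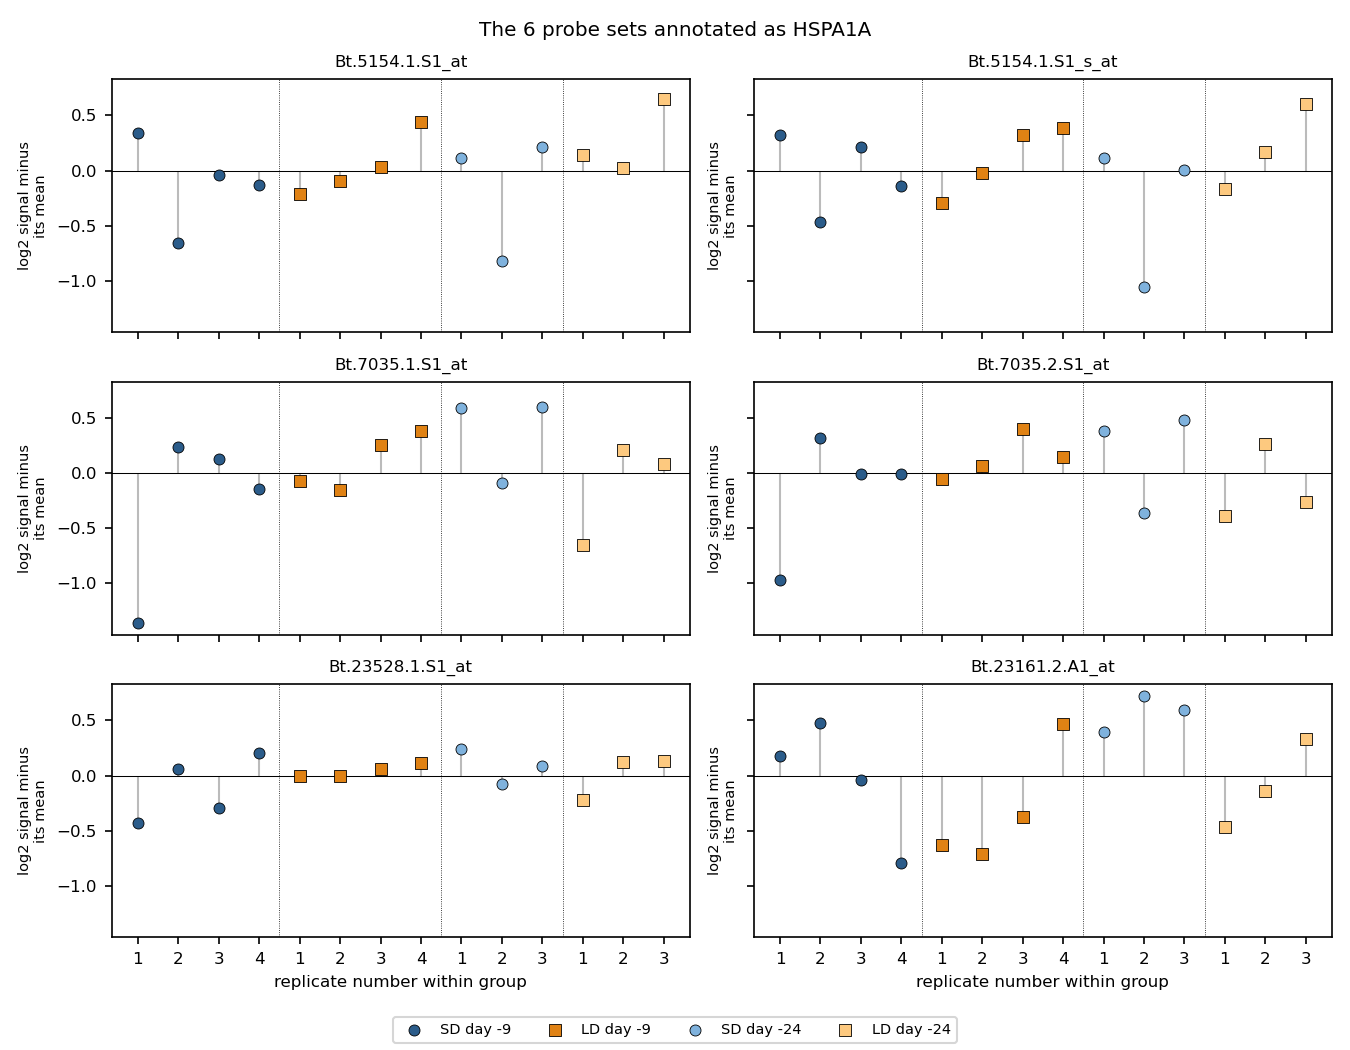
Log2 signal of each of the 6 HSPA1A probe sets minus its own mean over 14 arrays (vertical axis), by group and replicate number (horizontal axis). Both panels of the top row dip at replicate 2 of each SD group, and both of the middle row dip at SD day -9 replicate 1, where those of the top row are above 0.

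Bt.23161.2.A1_at was the HSPA1A probe set whose groups came apart at day -24. It was at 8.48, 8.81 and 8.68 in SD and at 7.62, 7.95 and 8.41 in LD, so that the lowest SD array lay above the highest LD array. The difference of 0.66, or 1.58-fold, had an SE of 0.34 (95% interval -0.07 to 1.39, limma adjusted p = 0.9997). It was 1 of the 18 probe sets without overlap in this direction, where 2.64% of all probe sets had none. The day -9 groups overlapped, at 8.26, 8.56, 8.04 and 7.29 in SD and 7.46, 7.37, 7.71 and 8.55 in LD.

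DNAJB1 is the J-domain partner that is induced with HSPA1A under heat. Its main probe set was at 10.11, 10.39, 10.25 and 10.43 in SD at day -9 and 10.27, 10.33, 10.39 and 10.24 in LD at day -9. At day -24 it was at 10.43, 10.37 and 10.20 in SD and 10.40, 10.57 and 10.50 in LD. In LD every day -9 array lay below every day -24 array, by 0.01 at the nearest. The difference was -0.18 (SE 0.11, 95% interval -0.42 to 0.06, limma adjusted p = 0.662). The second probe set, Bt.17367.1.S1_at, had the opposite sign in that comparison, 0.14 (-0.23 to 0.50), and the mean of both differed by -0.02. SD and LD differed by -0.15 at day -24 (-0.41 to 0.10) and -0.01 at day -9 (-0.23 to 0.21).

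HSPH1, or HSP110, is a nucleotide exchange factor of HSP70. Its main probe set was at 9.55, 10.25, 9.996 and 9.78 in SD at day -9 and 9.62, 9.85, 9.95 and 10.40 in LD at day -9. The day -24 values were 10.38, 9.90 and 9.95 in SD and 9.94, 10.21 and 10.36 in LD. All groups overlapped. The difference between days was -0.18 in SD (SE 0.21, 95% interval -0.63 to 0.26) and -0.21 in LD (SE 0.21, -0.66 to 0.24), and SD and LD differed by -0.09 at day -24 and -0.06 at day -9. With 1 array left out, the difference between days in SD ran between -0.30 (day -9 replicate 2 dropped) and -0.03 (day -24 replicate 1 dropped). In LD it ran between -0.36 and -0.10, where the arrays dropped were replicates 4 and 1 of day -9.

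The other 3 HSPH1 probe sets were dim. Bt.19629.3.A1_at lay below the lower quartile on all 14 arrays, and the other two never reached the upper quartile. Bt.19629.2.S1_at had the largest interaction estimate of the 18, 1.07 (SE 0.52, 95% interval -0.06 to 2.21, limma adjusted p = 0.900). It was at 5.58, 5.63, 5.64 and 5.09 in SD at day -9 against 4.88, 4.50, 5.27 and 4.61 in LD, and at 5.96, 4.79 and 4.30 in SD at day -24 against 6.12, 5.40 and 4.75 in LD. The main HSPH1 probe set gave 0.03 for the interaction (-0.61 to 0.66), and the correlation of both over 14 arrays was r = 0.07 (rho = 0.09, and 0.05 without 2 arrays).

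HSP90AA1 encodes the inducible form of cytosolic HSP90. Its main probe set was at 12.02, 11.999, 12.04 and 11.97 in SD at day -9 and 11.91, 11.98, 12.11 and 12.02 in LD at day -9. At day -24 it was at 12.17, 12.12 and 11.98 in SD and 12.22, 12.22 and 12.25 in LD. The 3 LD arrays of day -24 were the highest of the 14, above the LD arrays of day -9 and the SD arrays of day -24. Between days the difference in LD was -0.22, or 0.86-fold (SE 0.09, 95% interval -0.43 to -0.02). Of the 18 probe sets it alone had an unadjusted p under 0.05 there, limma unadjusted p = 0.0309, where 7.47% of all probe sets did, and its limma adjusted p was 0.651. Between photoperiods at day -24 the difference was -0.14 (SE 0.10, -0.35 to 0.08).

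Without overlap between days in LD were 2 of the 18 probe sets, those of DNAJB1 and HSP90AA1, both lower at day -9, where 4.66% of all probe sets were lower without overlap. At day -24, HSP90AA1 was 1 of 18 lower in SD without overlap, where 3.02% of all were. The second HSP90AA1 probe set, Bt.23179.1.S1_at, overlapped in both comparisons, at 10.97, 11.12, 11.13 and 10.99 in LD at day -9 and 10.80, 11.32 and 11.34 in LD at day -24. Its difference between days in LD was -0.10 (95% interval -0.46 to 0.26). The 3-prime to 5-prime difference of the GAPDH control, a sign of RNA quality, lay between 1.27 and 1.49 in LD at day -9 and between 1.47 and 1.65 in LD at day -24. These GAPDH ranges overlapped, with medians of 1.40 at day -9 and 1.58 at day -24. The EF1A control difference also overlapped, between -1.75 and -1.56 in LD at day -9 and between -1.76 and -1.64 in LD at day -24. The mean of 9 adipocyte markers lay between 6.59 and 7.29 in LD at day -9 and between 6.24 and 6.72 in LD at day -24. The part of RNA quality and of fat cells in the HSP90AA1 difference was not tested.

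HSP90AB1, the constitutive HSP90, was at 11.57, 11.96, 11.77 and 11.73 in SD at day -9 and 11.64, 11.75, 11.77 and 11.77 in LD at day -9. At day -24 it was at 11.77, 11.61 and 11.77 in SD and 11.51, 11.91 and 11.93 in LD. The groups overlapped throughout. The 4 differences between group pairs lay between -0.07 and 0.04, and the widest of their intervals ran from -0.37 to 0.23 (SD against LD at day -24). Without LD day -24 replicate 1, the lowest of the 14 arrays, that difference was -0.21.

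HSPB1, or HSP27, is a small heat shock protein that is also abundant in epithelium and muscle. Its main probe set was at 11.74, 11.66, 11.34 and 11.31 in SD at day -9 and 11.37, 11.41, 11.44 and 11.71 in LD at day -9. The day -24 values were 11.29, 11.29 and 11.45 in SD and 11.14, 11.39 and 11.58 in LD. HSPB1 was the only gene of the 7 whose main probe set had a positive estimate between days averaged over photoperiods, 0.14 (SE 0.10, 95% interval -0.08 to 0.36), and the groups overlapped. Its second probe set correlated with the first at r = 0.86 (rho = 0.75, and 0.72 without 2 arrays) and gave 0.05.

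**Figure D3:**
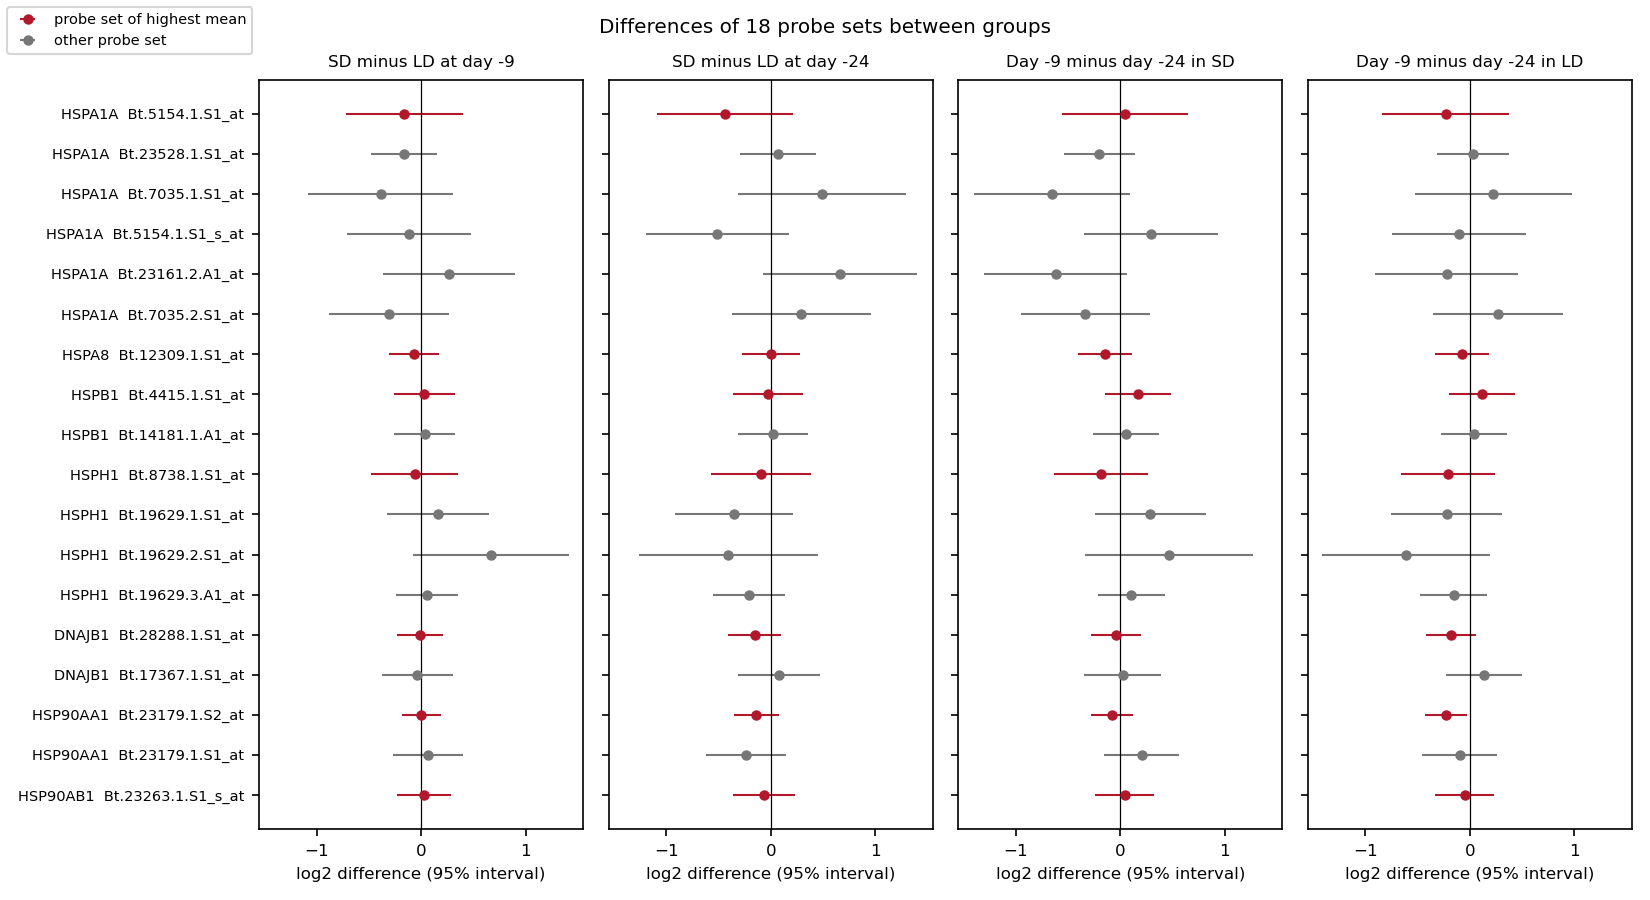
Log2 difference with its 95% interval (horizontal axis) for the 18 probe sets in 4 comparisons, with the main probe set of each gene in red. HSP90AA1 in the comparison between days in LD, at -0.22, is the one interval that does not reach 0, and the HSPA1A probe sets lie on both sides of 0 at day -24.

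Over the 7 main probe sets, the photoperiod estimates were small. SD against LD at day -24 had a median of -0.09, beside 0.04 over all named genes. It was negative in 7 of 7, but HSPA8 was at 0.00 to 2 decimals, and 4 of the 6 HSPA1A probe sets were positive. HSPA8, HSPB1, HSPH1 and HSP90AB1 turned positive when 1 array was left out. SD against LD at day -9 was negative in 4 of 7, with a median of -0.01, beside -0.04 over all named genes. Of these estimates, 6 of 7 turned sign when 1 array was left out. The comparison between days was negative in 4 of 7 in SD (median -0.04, beside -0.03) and in 6 of 7 in LD (median -0.18, beside 0.06). With 1 array left out, 3 of 7 turned sign in SD and 1 of 7 in LD. Over all 18 probe sets the estimates were above 0 in 6 at day -24 (median -0.08), in 9 at day -9 (-0.01), in 10 between days in SD (0.03) and in 6 between days in LD (-0.10), where the medians over all 24016 lay between -0.01 and 0.01. In the photoperiod comparisons, 0 of the 18 probe sets had a limma unadjusted p under 0.05 at day -24 (2.42% of all probe sets), at day -9 (2.77%) or averaged over days (1.94%). The counts in the comparison between days were 0 in SD, where 4.56% of all did, 1 in LD, and 1 averaged over photoperiods, where 7.72% of all did. That 1 was again the main probe set of HSP90AA1, with an averaged difference of -0.15 (limma adjusted p = 0.639). At day -9, 0 of 18 were higher in SD without overlap (1.34% of all) and 0 of 18 lower (1.12%). Between days in SD the counts without overlap were 0 higher (2.96%) and 0 lower (2.94%), and in LD 0 were higher (4.32%). The interaction of photoperiod and day had 0 of 18, where 4.15% of all probe sets did, and its main estimates lay between -0.07 (HSPA8) and 0.28 (HSPA1A).

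The genes differed in how much the arrays varied within groups. They also differed in signal, with main probe sets between 8.59 (HSPA1A) and 12.27 (HSPA8) on average. The shares given here are over probe sets of every signal level, and the part of signal level in the spread was not tested. The SD of HSP90AA1 was 0.07, lower than that of all but 0.570% of probe sets, and that of DNAJB1 was 0.11, with 5.10% lower. HSP90AB1 (0.15) and HSPB1 (0.18) were also under the median of all probe sets, 0.24. HSPH1 was above it at 0.29, and the main HSPA1A probe set at 0.40, with 82.8% of probe sets lower. Of the other 5 HSPA1A probe sets, 4 had an SD between 0.41 and 0.51, and Bt.23528.1.S1_at had 0.20. Second probe sets of DNAJB1 and HSP90AA1 had an SD of 0.22 each, so the low spread of the main ones holds for those probe sets and not for each probe set of the gene.

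Some members varied together from array to array. Of the 21 pairs of genes, HSPA8 and HSPH1 correlated most closely, at r = 0.93 (rho = 0.93) over 14 arrays, 0.90 without the 2 arrays farthest from the HSPA8 median and 0.94 after group means were taken out. HSPA8 correlated with HSP90AB1 at r = 0.71 (rho = 0.67, and 0.70 without 2 arrays) and HSPH1 with HSP90AB1 at r = 0.68 (rho = 0.69, and 0.79 without 2 arrays). HSPA1A had r between -0.12 and 0.31 with the other 6 genes, and without the replicate 2 arrays of both SD groups it reached 0.63 with HSPB1, 0.51 with HSPH1 and 0.46 with HSP90AA1. HSPB1 had r between -0.40 and 0.37 with the other 6. Its r with DNAJB1 was -0.40 (rho = -0.44), but 0.05 without 2 arrays, and its r with HSP90AB1 was 0.37 (rho = 0.42), but 0.84 without 2 arrays. The pairs share their arrays, and no test is attached.

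**Figure D4:**
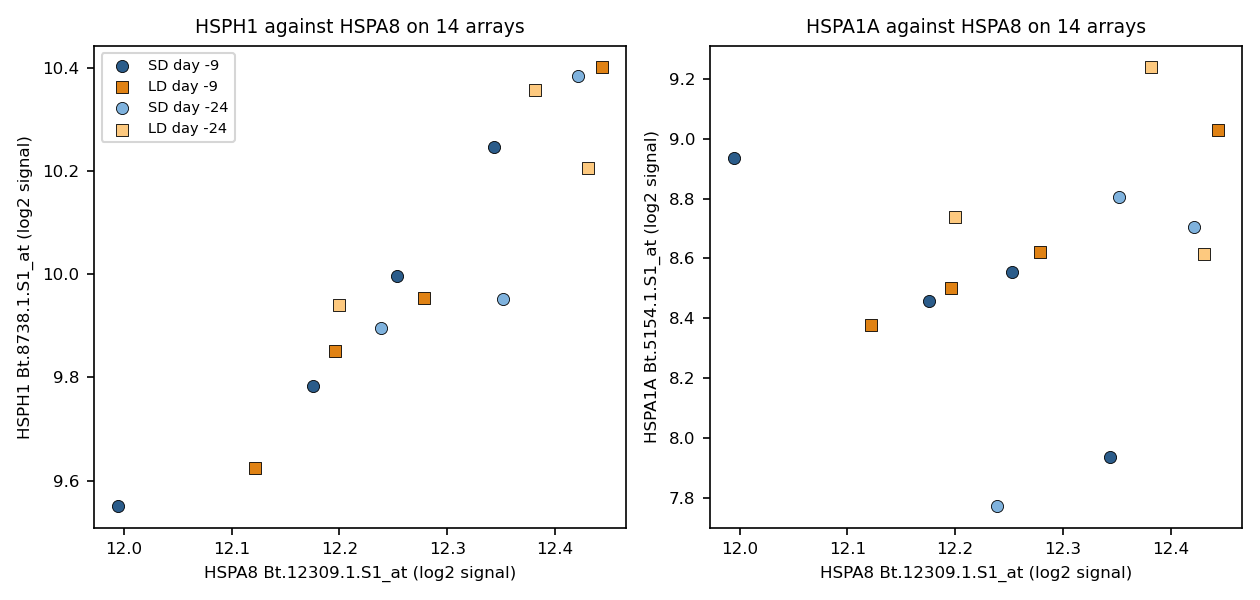
Log2 signal of HSPH1 (left) and HSPA1A (right) against that of HSPA8 on the 14 arrays, coloured by group. HSPH1 lies along a line with HSPA8 (r = 0.93) with the 4 groups mixed along it, and HSPA1A does not (r = 0.17).

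Among 9148 other named genes, those most like HSPA8 over the 14 arrays included further chaperones. HSPA9, the mitochondrial HSP70, had r = 0.94 (rho = 0.92, and 0.88 without 2 arrays), CCT6A, a subunit of the chaperonin TRiC, r = 0.94 (rho = 0.82, and 0.90), and the ribosome biogenesis gene BYSL r = 0.94 (rho = 0.89, and 0.89). The J-domain gene DNAJC9 had r = 0.93 and RAN, the GTPase of nuclear transport, r = 0.92. For HSP90AB1 they were TRMT6, a tRNA methylation factor (r = 0.96, rho = 0.83, and 0.93 without 2 arrays), the mitochondrial ribosomal gene MRPS23 (0.93), JPT2 (0.91), UTP25 (0.90) and the DNA repair gene APEX1 (0.89). For the main HSPA1A probe set they were LRP8 (r = 0.87, rho = 0.84), ZNF639 (0.82), the myogenic factor MYOD1 (0.81), RNPEPL1 (0.81) and CNMD (0.79), and each of the 5 was between 0.67 and 0.76 without both replicate 2 arrays of SD. These are the highest of 9148 values on 14 arrays and describe the arrays only.

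Genes around the 7 members were read from 9 lists of chaperones, co-chaperones and stress genes, of which 87 genes were measured. None passed an adjusted p of 0.05 in the 7 comparisons. Between days in LD, 9 of the 87 had a limma unadjusted p under 0.05, 5 higher and 4 lower at day -9, where 7.98% of 9155 named genes did. In SD there were 4, 3 higher and 1 lower, where 3.63% of named genes did. Between photoperiods there was 1 at day -24 (1.90% of named genes) and 1 at day -9 (2.56%). These shares lie near those of all named genes.

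Of the 14 measured partners of HSP90, 1 was higher and 3 were lower between days in LD at a limma unadjusted p under 0.05. Of all 9155 named genes, 7.98% were under it in that comparison, in either direction. PTGES3, the p23 co-chaperone that closes the HSP90 cycle, was at 11.05 ± 0.10 at day -9 and 11.37 ± 0.12 at day -24 (SD, n = 4 and 3), a difference of -0.33 (SE 0.10, limma adjusted p = 0.651). TTC4, an HSP90-binding protein, differed by -0.37 and UNC45A, the myosin co-chaperone, by 0.40. Over the 14 partners the median was 0.04, with 5 below 0, beside 0.06 over all named genes. In SD the median was -0.03, with 10 of 14 below 0, also beside -0.03 over all.

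Of the heat shock transcription factors, HSF1, HSF2 and HSF4 were measured. HSF2 was at 9.04 ± 0.07 in LD at day -9 and 9.28 ± 0.06 in LD at day -24 (SD, n = 4 and 3), a difference of -0.24 (SE 0.10, limma adjusted p = 0.651). The list's estimates between photoperiods lay between 0.01 and 0.12 at day -9 and between -0.07 and 0.16 at day -24, and 0 of 3 had a limma unadjusted p under 0.05 in either.

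Small heat shock proteins were measured for 6 genes beside HSPB1. HSPB6, a small heat shock protein of muscle, was at 8.21 ± 0.33 in SD and 8.77 ± 0.46 in LD at day -9 (SD, n = 4 each), and at 8.47 ± 0.25 in SD and 7.93 ± 0.57 in LD at day -24 (n = 3 each). Its difference between days in LD was 0.84 (SE 0.29, limma adjusted p = 0.651) and its interaction -1.09 (SE 0.41, limma adjusted p = 0.900). HSPB6 alone of the 6 had a limma unadjusted p under 0.05 there, where 7.98% and 3.58% of named genes did. Between days in LD the 6 had a median of 0.23, with 4 above 0, beside 0.06 over all named genes. For the interaction their median was -0.01, with 3 above 0, beside -0.09. The mean of 10 markers of myoepithelium, contractile cells that surround the alveoli, lay between 8.94 and 9.34 in LD at day -9 and between 8.62 and 9.08 in LD at day -24. In SD it lay between 8.96 and 9.81 at day -9 and between 8.80 and 9.17 at day -24, where HSPB6 differed by -0.26 between days. The part of these cells in the HSPB6 values was not tested.

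The chaperonin TRiC and prefoldin, which fold actin and tubulin, gave 12 measured genes with small estimates. Between days, 11 of 12 were below 0 in SD (median -0.06) and 2 of 12 in LD (median 0.07), and the interaction was below 0 in 12 of 12 with a median of -0.11. Over all named genes the interaction had a median of -0.09, with 5800 of 9155 below 0. Over all 24016 probe sets its median was -0.02, with 12514 below 0. No TRiC or prefoldin gene had a limma unadjusted p under 0.05 in the 7 comparisons. Cytosolic HSP70 relatives and exchange factors (10 genes) and J-domain partners (7 genes) had medians between -0.07 and 0.15 in the 4 comparisons of group pairs. Of these 17, BAG5, an HSP70 cofactor, alone had a limma unadjusted p under 0.05. At day -9 it was at 7.06 ± 0.22 in SD and 6.68 ± 0.05 in LD (SD, n = 4 each, difference 0.38, limma adjusted p = 0.984). Between days in SD it also differed by 0.43, from 6.63 ± 0.37 at day -24 (n = 3, limma adjusted p = 0.970). Of all named genes, 2.56% were under that p between photoperiods at day -9 and 3.63% between days in SD.

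Chaperones of other compartments were read from 2 lists. In the endoplasmic reticulum 10 of 11 genes were below 0 in SD against LD at day -24 (median -0.13) and 10 of 11 at day -9 (median -0.07), where the medians over all named genes were 0.04 and -0.04. CALR, the lectin chaperone calreticulin, differed by -0.81 at day -24 (SE 0.32, limma adjusted p = 0.9997). In mitochondria 5 of 8 were above 0 at day -24 and 0 of 8 at day -9 (medians 0.07 and -0.09). Of all 9155 named genes, 5484 were above 0 at day -24 and 3635 at day -9.

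Immediate early genes, which like HSPA1A answer within minutes to tissue handling and stress, were measured for 16 genes. Between days in SD, 14 of 16 were above 0 with a median of 0.28, and in LD 8 of 16 with a median of -0.02, beside -0.03 and 0.06 over all named genes. DUSP1, a phosphatase that ends MAP kinase signals, was at 9.47 ± 0.26 in SD and 9.57 ± 0.26 in LD at day -9 (SD, n = 4 each), against 8.95 ± 0.14 in SD and 8.82 ± 0.18 in LD at day -24 (n = 3 each). Its differences between days were 0.52 in SD and 0.75 in LD (limma adjusted p = 0.970 and 0.651). The HSPA1A probe sets were mixed in sign: 2 of 6 were above 0 between days in SD and 3 of 6 in LD, and each interval took in 0. The part of tissue handling or stress in these values was not tested.

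**Figure D5:**
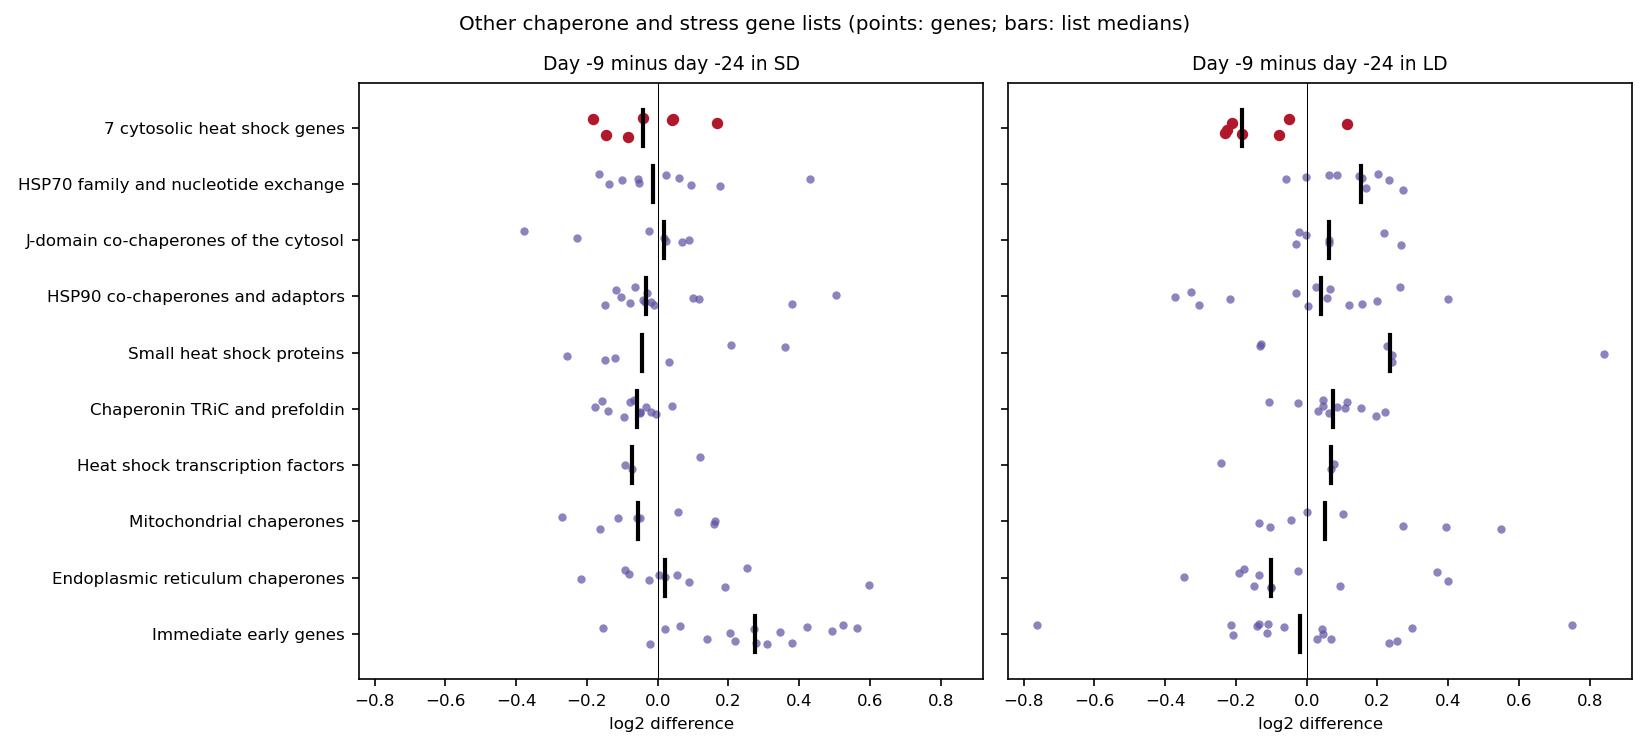
Log2 difference between day -9 and day -24 (horizontal axis) in SD (left) and LD (right), for the main probe sets of the 7 genes in red and 9 further lists in purple, with a point per gene and a bar at each median. The 7 genes have medians of -0.04 in SD and -0.18 in LD, and immediate early genes in SD have the median farthest from 0 among the purple lists of that panel, 0.28.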

How the data were processed

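RNA of each biopsy was hybridised to an Affymetrix bovine array. Per the submitters' processing notes, RMA turned probe signals into probe set values, with no version given in the sources used here. Each deposited value is thus a log2 signal, for 24128 probe sets on 14 arrays, with none missing. No scanner file was used, and 3 or 4 arrays a group set the precision.

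From these, 112 control probe sets were left out. Symbols come from the platform annotation: 13292 probe sets have 1 symbol, 86 several and 10638 none. In R 4.3.3, limma 3.58.1 fitted 4 group means over 14 arrays, with 7 contrasts, two-sided moderated tests and Benjamini-Hochberg adjustment over 24016 probe sets (threshold 0.05), after a test on simulated data. Each photoperiod comparison shares arrays with each comparison between days. Correlations used scipy 1.17.1.

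The brightest probe set on average stands for a gene. All 7 members were described, up to 3 genes per list by smallest p in a contrast, and the 5 genes most like HSPA1A, HSPA8 and HSP90AB1. The members and lists were chosen with earlier results of these data known. Alternatives were other variance models, array weights, 2 scalings, 2 filters, replicate blocks, the compared groups alone, the mean of a gene's probe sets, and arrays left out.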

Additional observations from a re-analysis of the deposited data

Results flagged for a closer look

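In the groups of 4 arrays, 36 sets of values of the 18 probe sets were searched for an array far from the other 3 of its group, and chance gives about 5% of them. There was 1: HSPH1 probe set Bt.19629.2.S1_at was at 5.09 in SD day -9 replicate 4, and the other 3 arrays lay between 5.58 and 5.64. The gap was 0.902 of the whole range, past Dixon's 95% critical value for 4 values. Over all probe sets 6.43% were past it in SD at day -9. This probe set is dim, and the main HSPH1 probe set has no such array in SD at day -9. No probe set of the 7 genes passed the interaction of photoperiod and day, and none had groups that separated in opposite directions at the 2 days.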

How the results depend on the processing

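The 49 differences of main probe sets were recomputed under up to 27 alternatives, 1302 values in all, and 0 passed an adjusted p of 0.05. The smallest adjusted p was 0.385 (HSP90AA1 between days in LD, with array weights, difference -0.24). That difference lay between -0.28 and -0.16 over its alternatives. Of the 1302 values, 14 moved by at least 1 SD within groups: 10 when all probe sets of a gene were averaged, 2 with array weights and 2 without both LD day -24 replicate 1 and SD day -9 replicate 1, an alternative chosen after seeing the data. With its probe sets averaged, HSPA1A differed by 0.09 between SD and LD at day -24, where the main probe set gave -0.44. Over all probe sets, 0 were called in each comparison, except 2 between days averaged over photoperiods when only probe sets above the median signal were tested (fewer tests), 1 between days in SD without the 2 arrays of low signal, 0 to 1 in that comparison with 1 array left out (1 without SD day -24 replicate 3) and 0 to 1 in SD against LD averaged over days (1 without SD day -9 replicate 3). None was one of the 18. Scaling moved the median of all probe sets by at most 0.06. Of 13 same-numbered pairs of arrays, 7 had deviations from group means that correlated over 0.1 (range -0.31 to 0.33), and 3 of 6 day -24 arrays correlated best with their own number at day -9, so the numbers were not taken as pairs. With the replicate number as a fixed block, or as a random block within photoperiod, 0 probe sets were called in each comparison. Detection calls were not used here, so signal over background is not given.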
